A study of Mus musculus with 6 samples.

Results

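The response to tumour necrosis factor (TNF) of a mouse aortic cell line without the splicing repressor Ptbp1 was read from 2 RNA sequencing libraries of the 6 in the study. One came from knockout cells at rest and the other from knockout cells given TNF. Both were chosen by the names of the deposited files, KO and KO_TNF, because these names and the sample titles disagree for 4 of the 6 libraries. The library named KO is titled Rescue, and the library named KO_TNF is titled WT with TNF. Of the other 4, the one named WT (basal in the file names, read here as WT) is also titled WT, the one named WT_TNF is titled KO, the one named Rescue is titled KO with TNF, and the one named Rescue_TNF is titled so. Below, each library is called by the name of its files.

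All 6 groups share 1 parental line, Fn AB+/- in the labels, made immortal by SV40 that doxycycline switches on (TetOn-SV40). Cells were expanded with doxycycline at 2 ug/mL, which was taken away before plating in 10% serum, and TNFalpha was used at 30 ng/mL. The knockout line is a single cell clone in which Ptbp1 was deleted by CRISPR. Against the parental line, effects of the clone and of the deletion therefore cannot be told apart. The rescue line is titled as the PTBP1 CRISPR knockout with a human PTBP1 cDNA, so by its titles it shares the knockout genotype. Each genotype has 1 library without and 1 with TNF. No group has a replicate, and the labels do not say whether the libraries came from separate experiments.

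TNF binds its receptors Tnfrsf1a and Tnfrsf1b, which recruit Tradd, Ripk1 and Traf proteins and activate the IkB kinase (Chuk, Ikbkb, Ikbkg). The kinase marks IkB proteins such as Nfkbia for destruction, and the released NF-kB dimers enter the nucleus and switch on chemokines, adhesion molecules and their own inhibitors. In cells of the vessel wall this programme serves to recruit leukocytes. A later wave, made through interferon, adds antiviral and antigen presentation genes. Ptbp1 recognises runs of pyrimidines in RNA, and its usual effect is to block the use of nearby exons. By doing so it keeps an exon of its paralogue Ptbp2 out of the messenger RNA, and transcripts without that exon are degraded, so that Ptbp2 reports the loss of Ptbp1.

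That reporter exon is shown first because it is a check on the genotype in the names of the files, not on TNF. It is coding sequence of 34 nt by the GENCODE vM21 annotation (GRCm38), from whose transcripts it was read 5′ to 3′.
Ptbp2 exon, chr3:119724612-119724645, minus strand: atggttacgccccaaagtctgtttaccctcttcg

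The exon's inclusion (psi, the fraction of transcripts with the exon) was 1.0 in the library named KO, on 435 reads, and 1.0 in the library named KO_TNF, on 395 reads. It was 0.562 and 0.698 in the libraries named WT and WT_TNF and 0.891 and 0.942 in those named Rescue and Rescue_TNF. Inclusion was thus highest in the pair named KO, and its deposited intervals (0.993 to 1.0 and 0.992 to 1.0) did not overlap those of the other 4. Ptbp2 itself stood at 219 and 192 CPM (counts relative to library size, scaled by TMM factors) in the pair named KO, against 37.9 to 76.6 in the other 4. Ptbp1 was at 388 CPM in the library named KO and 425 in the one named KO_TNF, against 174 to 423 elsewhere, so its total level does not set this pair apart. An exon part of Ptbp1 of 30 nt (chr10:79858952-79858981, coding) had an inclusion of 0.854 and 0.849 in the pair named KO and 1.0 in the other 4 libraries. It was picked for an inclusion at least 0.1 lower in this pair than in the other 4, so it is no separate check on the names. Reads of a human cDNA are not counted as such here, so the rescue cannot be checked from Ptbp1.

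Next come 4 promoters, because the genes they belong to carry the contrast that the results turn on. Nfkbia and Tnfaip3, inhibitors of NF-kB, were higher with TNF in the pair named KO, Nfkbia close to the 2-fold line. Gbp5, an interferon-induced GTPase, was at least 2-fold higher with TNF in both other pairs and not in this one. Oas3, an antiviral nucleotide synthetase, is the member of the interferon list that did pass 2-fold in it. Each line gives the 250 bases before the gene's start from RefSeq (GRCm38.p6), 5′ to 3′ on the gene's strand, with matches to any of 4 motifs in capitals. The motifs were the NF-kB site, the core of the interferon-stimulated response element (ISRE) as GAAANNGAA, the interferon gamma-activated site (GAS) as TTCNNNGAA and the AP-1 site as TGANTCA, each on both strands.
Nfkbia, chr12:55492648-55492897, minus strand: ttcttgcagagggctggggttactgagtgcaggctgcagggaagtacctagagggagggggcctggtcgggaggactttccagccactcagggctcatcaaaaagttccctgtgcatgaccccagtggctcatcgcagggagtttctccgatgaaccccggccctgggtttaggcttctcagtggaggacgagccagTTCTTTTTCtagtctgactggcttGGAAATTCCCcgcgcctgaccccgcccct
Tnfaip3, chr10:19015411-19015660, minus strand: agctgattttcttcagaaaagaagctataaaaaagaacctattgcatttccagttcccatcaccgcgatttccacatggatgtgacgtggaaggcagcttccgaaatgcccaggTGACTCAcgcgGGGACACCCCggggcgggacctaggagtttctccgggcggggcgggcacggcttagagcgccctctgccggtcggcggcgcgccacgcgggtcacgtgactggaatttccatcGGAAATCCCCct
Gbp5, chr3:142496684-142496933, plus strand: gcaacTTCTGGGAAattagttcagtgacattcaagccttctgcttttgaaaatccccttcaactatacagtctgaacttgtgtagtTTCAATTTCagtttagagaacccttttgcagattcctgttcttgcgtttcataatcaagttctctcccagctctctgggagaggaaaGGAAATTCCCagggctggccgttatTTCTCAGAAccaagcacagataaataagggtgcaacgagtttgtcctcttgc
Oas3, chr5:120777660-120777909, minus strand: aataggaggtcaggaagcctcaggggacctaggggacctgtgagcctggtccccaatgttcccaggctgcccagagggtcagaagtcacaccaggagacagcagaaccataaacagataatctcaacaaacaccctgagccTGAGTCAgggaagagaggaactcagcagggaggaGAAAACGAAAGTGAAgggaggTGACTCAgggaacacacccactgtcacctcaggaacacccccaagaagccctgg

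In these windows Nfkbia held 1 NF-kB match and 1 ISRE core, and Tnfaip3, for the first of its 2 entries, 2 NF-kB matches and 1 AP-1 match. Gbp5 held 1 NF-kB match, 1 ISRE core and 2 GAS matches, and Oas3 held 2 overlapping ISRE cores and 2 AP-1 matches. Other windows were read and are not shown. Those of C3, Traf1, Junb, Psmb9, Tap1, Ptx3 and the other Tnfaip3 entry held no match to any of the motifs. Those of Icam1, Lif, Nfkbie and the first entry of Irf1 held matches, and the other entry of Irf1 held none. Over 7155 measured genes with a single promoter entry, 4.81% of windows held an NF-kB match, 5.79% an ISRE core, 6.01% a GAS match and 4.15% an AP-1 match. Among genes driven by TNF in both other pairs, an NF-kB match was in 15 of 90 windows (16.7%) where the pair named KO also passed 2-fold and in 25 of 157 (15.9%) where it did not. The ISRE core was in 9 of 90 (10.0%) and 34 of 157 (21.7%), the GAS match in 5 of 90 (5.56%) and 20 of 157 (12.7%), and the AP-1 match in 15 of 90 (16.7%) and 11 of 157 (7.01%). A match is a description of letters and shows no binding.

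The tested table held 12728 genes, and library totals were 19582761 to 21609245 expected counts. A TNF response is the log2 ratio of the TNF library to the resting library of a pair, with a prior count of 2, so that 1 stands for 2-fold. With 1 library on each side it has no test, and its 95% interval, where given, is an exact binomial interval that covers counting error only. The single test is edgeR's quasi-likelihood test of whether the response of the pair named KO differed from that of the other 2 pairs together. It has 1 residual degree of freedom, the difference between the pairs named WT and rescue, which stand in for replicates. The labelled endothelial origin was not borne out by markers: of 17 endothelial markers, 13 were under 1 CPM in both libraries named KO, Emcn, Cldn5 and Robo4 were at 0 in both, and the list's sum, 279 and 296 CPM there and 299 to 426 in the other 4 libraries, was mostly Eng. Smooth muscle and fibroblast markers summed to 25993 CPM in the library named KO and 17642 in the one named KO_TNF, and to 11662 to 28279 in the other 4. Blood cell markers summed to 16.7 to 35.9 CPM and epithelial markers to 3.8 to 33.0 over all 6 libraries. Whether changes in the makeup of the culture had a part in the results was not tested, and in such bulk samples fewer cells of a type and less RNA per cell cannot be told apart.

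The 4 markers of the TNF response were all higher with TNF in the pair named KO, and 3 of the 4 responses were smaller than in the other pairs by the test. Ccl2, the chemokine that draws monocytes, went from 33.1 to 380.5 CPM in the pair named KO, from 46.3 to 2038 in the pair named WT and from 50.4 to 1639 in the pair named rescue. The 3 resting libraries were within 2-fold of each other, and the library named KO_TNF lay below both other TNF libraries. The response was 3.52 (counting interval 3.41 to 3.64), against 5.46 and 5.02, and the difference was -1.72 ± 0.206 (the error is the fold change over the square root of F, from edgeR, adjusted p = 0.0114). Adjusted p ranged from 2.36e-08 by DESeq2 to 0.134 on the second deposited quantification.

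Vcam1, the adhesion molecule that binds leukocyte integrins, went from 46.5 to 217.7 CPM with TNF in the pair named KO. It went from 114.4 to 1452 CPM in the pair named WT and from 67.1 to 872 CPM in the pair named rescue. The library named KO was the lowest of the resting libraries and the library named KO_TNF the lowest of the TNF libraries. Its responses were 2.22 (2.12 to 2.33), 3.66 and 3.70, and the difference was -1.46 ± 0.145 (edgeR, adjusted p = 0.00558, and from 1.63e-07 by DESeq2 to 0.0594 on the second quantification).

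Nfkbia, the IkB protein that NF-kB itself induces, went from 76.3 to 156.1 CPM in the pair named KO. It went from 61.3 to 440.4 CPM in the pair named WT and from 58.5 to 372.2 CPM in the pair named rescue. The resting level was the highest of the 3 in the library named KO, and the level with TNF was the lowest. The response was 1.03 (0.94 to 1.12), against 2.84 and 2.67, with a difference of -1.72 ± 0.148 (edgeR, adjusted p = 0.00398, and from 8.25e-09 by DESeq2 to 0.0573 on the second quantification). Under total-count scaling its response was 0.997, on the second quantification 0.995 and on log2(TPM + 1) 0.945, each just under 2-fold.

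Icam1, another ligand of leukocyte integrins, was near the floor of the data. It went from 0.25 CPM (5 counts) to 2.53 CPM (50 counts) in the pair named KO, from 0.51 to 24.9 in the pair named WT and from 0.27 to 3.07 in the pair named rescue. The library named KO_TNF lay close to Rescue_TNF and well under WT_TNF. The response was 2.94 with a wide counting interval (2.05 to 5.05), and the test of the difference missed its threshold (edgeR, adjusted p = 0.74).

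**Figure D1:**
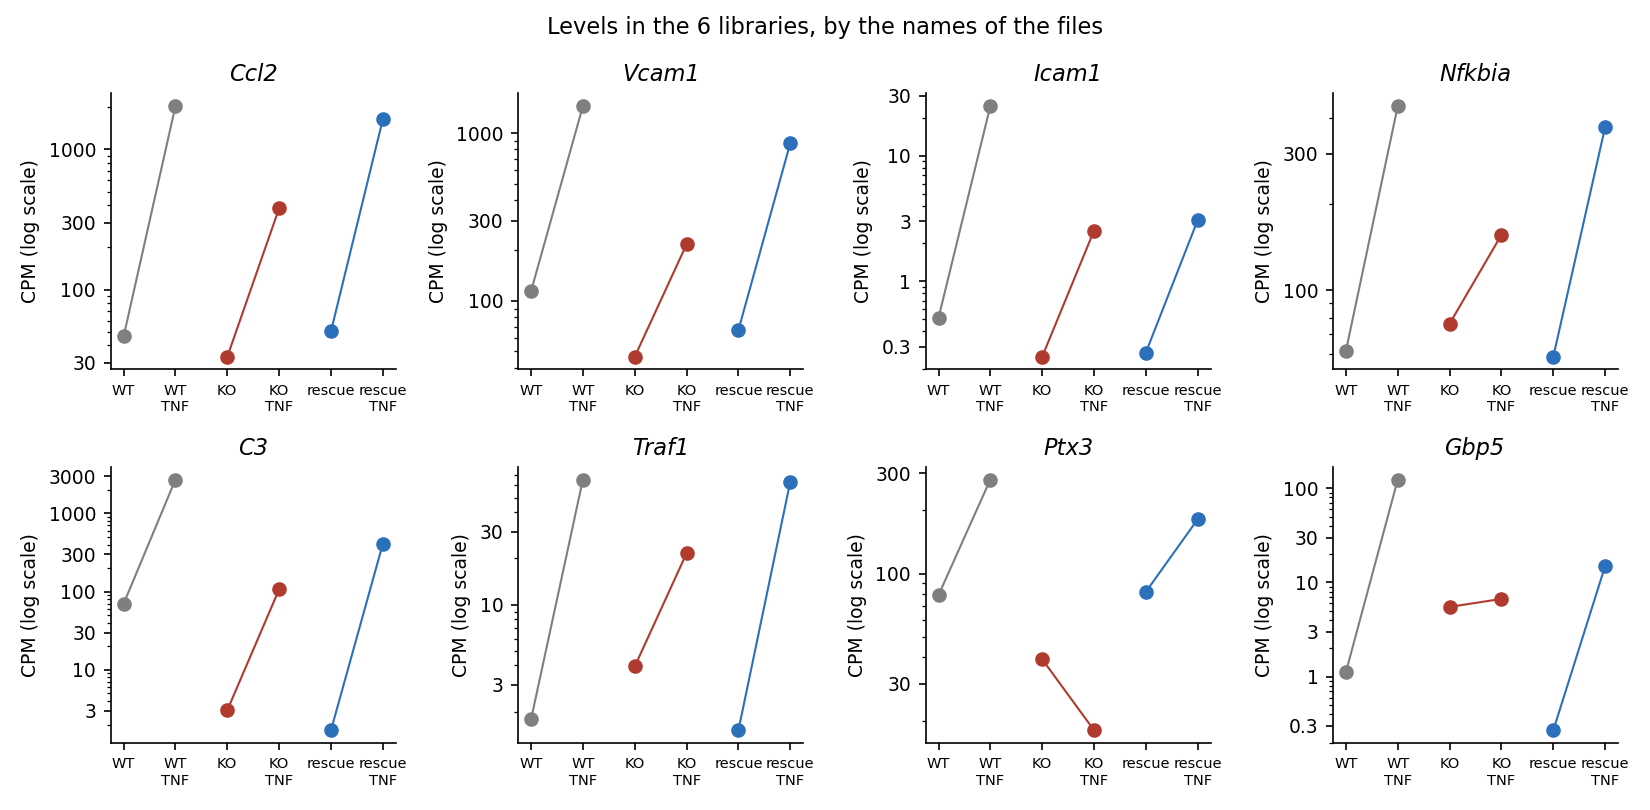
Level in CPM (log axis) of 8 genes in each of the 6 libraries, which are single points without replicates, with a line joining each pair of resting and TNF libraries. For Ccl2, Vcam1 and Nfkbia the line of the pair named KO (red) rises less than both others, for C3 it spans 34.03-fold, for Ptx3 it drops from 39.2 to 18.03 CPM and for Gbp5 it stays between 5.51 and 6.69 CPM.

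Over all genes, 347 were at least 2-fold higher (2.73% of those tested) and 498 at least 2-fold lower (3.91%) with TNF in the pair named KO. The pair named WT had 731 and 780 such genes, and the pair named rescue 563 and 566. The median response of all genes was -0.003, -0.017 and -0.003 in the pairs named KO, WT and rescue, a value that the scaling itself sets near 0. Of the 347 higher genes, 161 were at least 2-fold higher in both other pairs, 73 in 1 of them and 113 in neither. Only 122 of the 347 and 126 of the 498 reached 10 CPM in either library of the pair, and 29 and 56 had 0 counts in 1 library.

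Genes at least 2-fold higher in both the pair named WT and the pair named rescue are called TNF-driven here. These pairs share no library with the pair named KO. There were 439, and 161 of them (36.7%, against 2.73% of all genes) were at least 2-fold higher in the pair named KO as well. A further 89 were 1.5-fold to 2-fold higher, 172 were within 1.5-fold and 17 were at least 1.5-fold lower, 7 of these at least 2-fold. Their median response was 0.691, against 2.20 in the pair named WT and 1.69 in the pair named rescue, where the choice itself favours high values. Placing the 29 driven genes with 0 counts in 1 library of the pair at a floor of 3 counts per library gave a median of 0.666 and 153 genes past 2-fold.

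The same choice can be made from 1 pair and read in the others. Of the 731 genes at least 2-fold higher in the pair named WT, 439 (60.1%) were so in the pair named rescue and 193 (26.4%) in the pair named KO. Of the 563 chosen in the pair named rescue, 439 (78.0%) were so in the pair named WT and 202 (35.9%) in the pair named KO. By either choice the pair named KO shared fewer of the genes than the remaining pair did. Over all 12728 genes the responses of the pair named KO correlated with those of the pair named WT at r = 0.539 and with those of the pair named rescue at r = 0.628, and those 2 with each other at r = 0.812. These are descriptions across genes, which are not independent replicates.

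By edgeR's test the response differed in the pair named KO for 173 genes at an adjusted p under 0.05, and 1317 had an unadjusted p under 0.05. It was smaller, or more negative, for 126 (0.99%) and larger, or less negative, for 47 (0.369%). Among the 439 driven genes it was smaller for 102 (23.2%) and larger for 2 (0.456%). These genes were chosen for high responses in the other pairs, which favours calls of a smaller response. The number of genes called, 173 over all genes, depends on the processing. It was 135 by DESeq2, 60 with DESeq2 size factors in edgeR and 13 on the second deposited quantification. All 13 were smaller. Of 46 genes passing edgeR's test that are named here, 35 also passed by DESeq2, 25 with DESeq2 size factors and 5 on the second quantification.

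**Figure D2:**
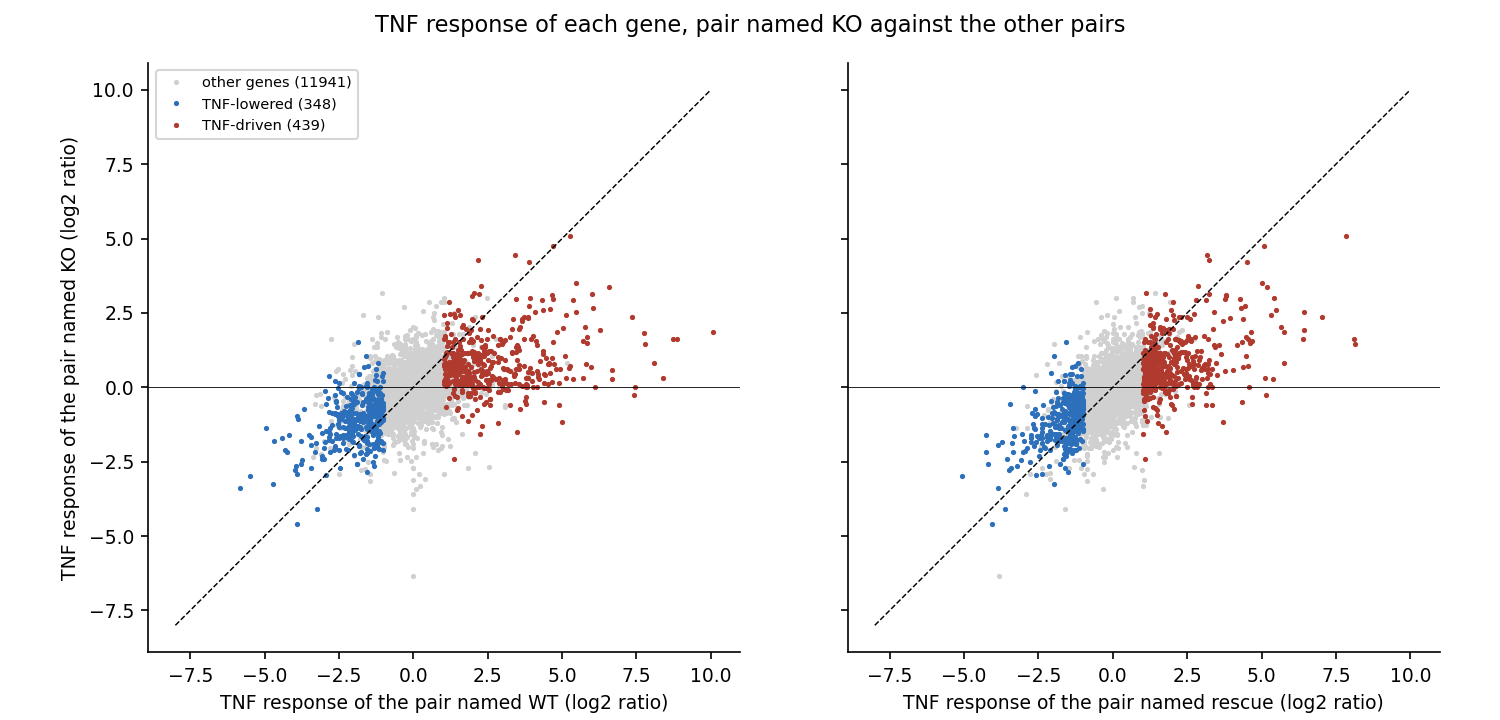
TNF response (log2 ratio) of each of 12728 genes in the pair named KO against the pair named WT (left) and the pair named rescue (right), with 439 TNF-driven genes in red, 348 TNF-lowered genes in blue and the line of equality dashed. Most red points lie under the line and above 0: 388 of the 439 were smaller in the pair named KO than in both others, in part by the way they were chosen.

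C3, Prl2c2 and Cxcl16 were among the driven genes with the largest responses in the pair named KO. C3, the central complement protein, went from 3.05 to 107.1 CPM in the pair named KO, from 69.9 to 2708 in the pair named WT and from 1.69 to 408.4 in the pair named rescue. Its response of 5.09 was the largest in this pair among genes of at least 10 CPM, while its level with TNF was the lowest of the 3. Prl2c2, a prolactin family protein with near-identical copies that counting may split, went from 1.48 to 42.0 CPM, a response of 4.74 against 4.69 and 5.07. Cxcl16, a membrane-bound chemokine, went from 0.64 to 13.4 CPM, a response of 4.197 against 3.89 and 4.52. For these 3 genes the test found no difference between pairs (edgeR, adjusted p = 0.842, 0.982 and 0.921), which does not show that the responses are equal.

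Il1rl1, the receptor of interleukin 33, differed in the other direction. It went from 19.2 to 422 CPM in the pair named KO, from 205.9 to 2198 in the pair named WT and from 229.9 to 2088 in the pair named rescue. Both levels in the pair named KO were far below those of the matching libraries, yet the ratio was larger. The response was 4.45 (4.31 to 4.61), against 3.42 and 3.18, with a difference of 1.16 ± 0.174 (edgeR, adjusted p = 0.0264). Over the other settings the adjusted p ranged from 0.00041 by DESeq2 to 0.114 on the second quantification.

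Other driven genes also had large responses in the pair named KO. Angptl4, a lipase inhibitor, had a response of 3.41 against 2.27 and 2.86. Sema7a, a membrane semaphorin, went from 8.12 to 74.0 CPM in the pair named KO, a response of 3.17, against 2.02 and 1.11 in the others, and its difference missed the threshold (edgeR, adjusted p = 0.0641). Mmp9, a gelatinase, had a response of 3.004 against 3.91 and 5.43, and Lif, a cytokine of the interleukin 6 family, one of 2.72 against 3.90 and 4.46. Btc, a ligand of the EGF receptor, had a response of 2.46, above both other pairs, and Nipal1 2.42 against 1.57 and 1.25. Of lower level were Rbm47, Dcn, Ccbe1 and Zmynd15, which stayed under 5 CPM in both libraries of the pair and had responses of 2.92 to 3.13. Esm1, a proteoglycan secreted by vessel cells, was not driven by this rule (0.77 in the pair named WT) and went from 2.41 to 16.7 CPM in the pair named KO, a response of 2.74, larger than in the others by the test (edgeR, adjusted p = 0.047, and from 0.0856 to 0.412 under the other settings).

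Among the 309 driven genes that reached 10 CPM in a library of the other pairs, those with the smallest responses included several that were lower with TNF. Over all 439 driven genes the lowest response was -2.398. Ptx3, a secreted pattern recognition protein of the acute response, went from 39.2 to 18.03 CPM in the pair named KO, from 79.1 to 280.6 in the pair named WT and from 82.0 to 181.7 in the pair named rescue. The direction in the pair named KO was opposite to both others. The response was -1.12 (-1.31 to -0.94), with a difference of -2.61 ± 0.273 (edgeR, adjusted p = 0.00679), and the adjusted p ranged from 1.24e-11 by DESeq2 to 0.0769 on the second quantification. Tnn, a tenascin, went from 0.89 to 0.25 CPM, with a response of -1.49 on few counts. Tmem140 went from 13.3 to 7.75 CPM, against 9.71 to 42.7 and 6.36 to 13.2, and its difference was -2.42 (edgeR, adjusted p = 0.0429, and from 0.00618 to 0.659 under the other settings).

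C1s, Serpina3n and Igfbp3 were also among the smallest responses. C1s, a protease of the classical complement pathway whose mouse copies counting may merge, went from 74.3 to 58.65 CPM with TNF in the pair named KO. It went from 264 to 723.8 CPM in the pair named WT and from 63.8 to 162.5 CPM in the pair named rescue. The library named KO_TNF was the lowest of all TNF libraries, and the difference of -1.75 passed the test (edgeR, adjusted p = 0.00377, and from 1.83e-09 by DESeq2 to 0.0161 with DESeq2 size factors). Serpina3n, an acute phase protease inhibitor, stayed at 0.69 and 0.46 CPM in the pair named KO, against 31.9 and 32.0 CPM in the other TNF libraries. Igfbp3, a binding protein of insulin-like growth factors, had 1 and 0 counts in the pair named KO. The remaining genes of this group by the naming rule were Psmb9, Mx1, Trim12c, Trim30a, Gm4951, F830016B08Rik, Gm11435, Gpm6b and Robo2, with responses from -0.50 to -0.10. The response of Gpm6b was 0 on the second quantification.

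Genes that feed back on NF-kB responded in part. Of 14 measured NF-kB inhibitors and feedback genes, 5 were at least 2-fold higher in the pair named KO and none was lower. Here and for the lists below, the shares over all genes in this pair were 2.73% higher and 3.91% lower. The median response of these 14 genes was 0.689, against 1.88 and 1.72 in the other pairs and -0.003 over all genes. Tnfaip3, the enzyme A20 that edits ubiquitin on the receptor complex, went from 24.2 to 54.5 CPM in the pair named KO, against 37.6 to 373 and 28.0 to 149.8. Nfkbie, an IkB protein, went from 8.02 to 31.4 CPM, against 12.5 to 146.7 and 8.23 to 85.4. Both ended lowest in the library named KO_TNF, and the difference passed the test for Nfkbie (edgeR, adjusted p = 0.013, and from 0.00407 to 0.134 under the other settings) and missed it for Tnfaip3 (edgeR, adjusted p = 0.0553).

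Tnfaip2, a TNF-induced protein of vessel cells, had a response of 1.17 against 2.71 and 2.05, and Tnip3, a partner of A20, one of 3.37 on 3 counts at rest. Below 2-fold were Tnip1, another partner of A20, at 0.49 against 2.30 and 1.92 (edgeR, adjusted p = 0.00946, and from 4.55e-06 to 0.0689 under the other settings), Bcl3, a nuclear IkB protein, at 0.73, Nfkbiz, also a nuclear IkB protein, at 0.79, Zc3h12a, an RNase, at 0.65 and Nfkbib at 0.57. Tnfaip8, Cyld, N4bp1 and Tnip2 had responses of 0.06 to 0.33. Tnip1 reached 81.8 CPM in the library named KO_TNF against 328.7 and 224.4 in the other TNF libraries.

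Of the 5 NF-kB subunits, Relb alone passed 2-fold in the pair named KO. It went from 17.2 to 38.4 CPM, against 19.3 to 107.4 and 12.6 to 73.6, and its smaller response passed the test (edgeR, adjusted p = 0.0122, and from 0.0116 to 0.0803 under the other settings). Nfkb2 had a response of 0.80, Nfkb1 of 0.46, Rela of 0.36 and Rel of -0.24, each below its values in the other pairs. Of 23 genes of TNF receptor signalling, Traf1 and Birc3 passed 2-fold and none was 2-fold lower. Traf1, an adaptor induced by NF-kB, went from 3.94 to 21.6 CPM, against 1.78 to 65.5 and 1.51 to 63.4. It started highest and ended lowest, and the difference was -2.84 (edgeR, adjusted p = 0.00398, and from 7.65e-07 to 0.0304 under the other settings). Birc3, a ubiquitin ligase of the receptor complex, went from 3.74 to 8.41 CPM, against 15.3 to 79.0 and 7.74 to 32.6.

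Most signalling proteins above NF-kB were within 1.5-fold in the pair named KO. Tnfrsf1a, the main TNF receptor, was at 164.9 and 149.8 CPM in the pair named KO and at 124.3 to 184.6 elsewhere, and Tnfrsf1b was at 68.5 and 61.9 CPM, against 31.4 to 61.5 elsewhere. Ripk1, the kinase recruited to the receptor, was at 25.8 and 22.2 CPM in the pair named KO, below the 59.9 to 68.3 CPM of the other 4 libraries. Ikbkb, Ikbkg, Chuk, Tradd, Traf2, Traf6, Map3k7, Map3k14, Tab1, Tab2, Tab3, Sharpin, Rbck1 and Rnf31 had responses from -0.22 to 0.28. Traf3, Traf5 and Map3k8 reached 0.70 to 0.80, and Birc2 was at 0.01 against 1.46 and 0.36.

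Of 11 adhesion genes, Icam1, Vcam1 and Sele (4 to 16 counts) passed 2-fold. Cd44, the hyaluronan receptor, went from 284.5 to 568.9 CPM, a response of 0.9995 against 1.21 and 0.94. Selp, a selectin, had a response of -0.94 against 1.96 and 1.49, at 2.90 and 1.47 CPM in the pair named KO. Alcam was at 0.39 against -0.49 and -0.46 (edgeR, adjusted p = 0.047, and from 0.0894 to 0.481 under the other settings), and Cd47 at 0.42 against 1.37 and 1.10. Madcam1 was under 3 CPM in all 6 libraries, and F11r, Jam2 and Jam3 had responses of -0.40 to -0.08.

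Of 8 CC chemokines, 5 passed 2-fold in the pair named KO and 6 in each other pair. Ccl7, a monocyte chemokine beside Ccl2 in function, went from 45.5 to 260.8 CPM, against 58.1 to 982.5 and 69.4 to 729.2. Ccl5, which draws T cells, showed one of the largest gaps: it went from 33.9 to 91.9 CPM in the pair named KO, from 7.58 to 1680 in the pair named WT and from 2.62 to 768.8 in the pair named rescue. The resting library named KO was the highest of the resting libraries, and the library named KO_TNF the lowest of the TNF libraries by a wide margin. The response was 1.44 against 7.77 and 8.14, and the difference was -6.51 ± 0.202 (edgeR, adjusted p = 1.82e-05, and from 2.53e-118 to 0.00598 under the other settings). Ccl8 went from 0.39 to 2.43 CPM, and Ccl20 had 0 counts at rest and 8 with TNF. Ccl9 had a response of 0.53 against 1.32 and 1.58 (edgeR, adjusted p = 0.047, and from 0.0936 to 0.192 under the other settings), Ccl25 one of 0.06 and Ccl27a one of 0.36.

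Of 10 CXC and CX3C chemokines, 3 passed 2-fold upwards in the pair named KO. These were Cxcl16, Cxcl1, a neutrophil chemokine (8.47 to 17.4 CPM, response 1.03 against 1.99 and 2.45), and Cxcl10, an interferon-inducible T cell chemokine. Cxcl10 went from 13.9 to 45.6 CPM, against 3.31 to 193.6 and 3.47 to 80.1, and its smaller response of 1.70 passed the test (edgeR, adjusted p = 0.00975, and from 0.0418 to 0.123 under the other settings). Cx3cl1, membrane-bound fractalkine, had 0.86 against 1.67 and 1.72 (edgeR, adjusted p = 0.0341, and from 0.065 to 0.149 under the other settings). Cxcl12, the homeostatic chemokine of stromal cells, was lower with TNF in all pairs, from 2421 to 1233 CPM in the pair named KO. Cxcl5 had 0 counts in both libraries of the pair named KO, and it reached 33.7 and 5.01 CPM in the other TNF libraries. Cxcl9, Cxcl11, Cxcl15 and Ppbp were under 1 CPM in the pair.

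Of 15 cytokines and growth factors, Lif, Il34 and Tslp passed 2-fold upwards and Il1rn and Tnfsf15 downwards. Il34, a ligand of the macrophage growth factor receptor, had responses of 1.15, 1.27 and 1.24 in the pairs named KO, WT and rescue, nearly the same ratio in each. Csf1, the other ligand of that receptor, went from 1207 to 1677 CPM, a response of 0.47 against 1.41 and 1.16. Vegfc, a lymphatic growth factor, had 0.78 against 2.18 and 2.04 (edgeR, adjusted p = 0.0153, and from 0.0344 to 0.0841 under the other settings). Il1rn, the interleukin 1 receptor antagonist, went from 17.5 to 5.17 CPM. Kitl had a response of 0.07 against -1.23 and -0.57, and Il6, Il15, Il18, Il33, Tnfsf9, Tnfsf11 and Tnfsf13b were below 7 CPM in both libraries.

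**Figure D3:**
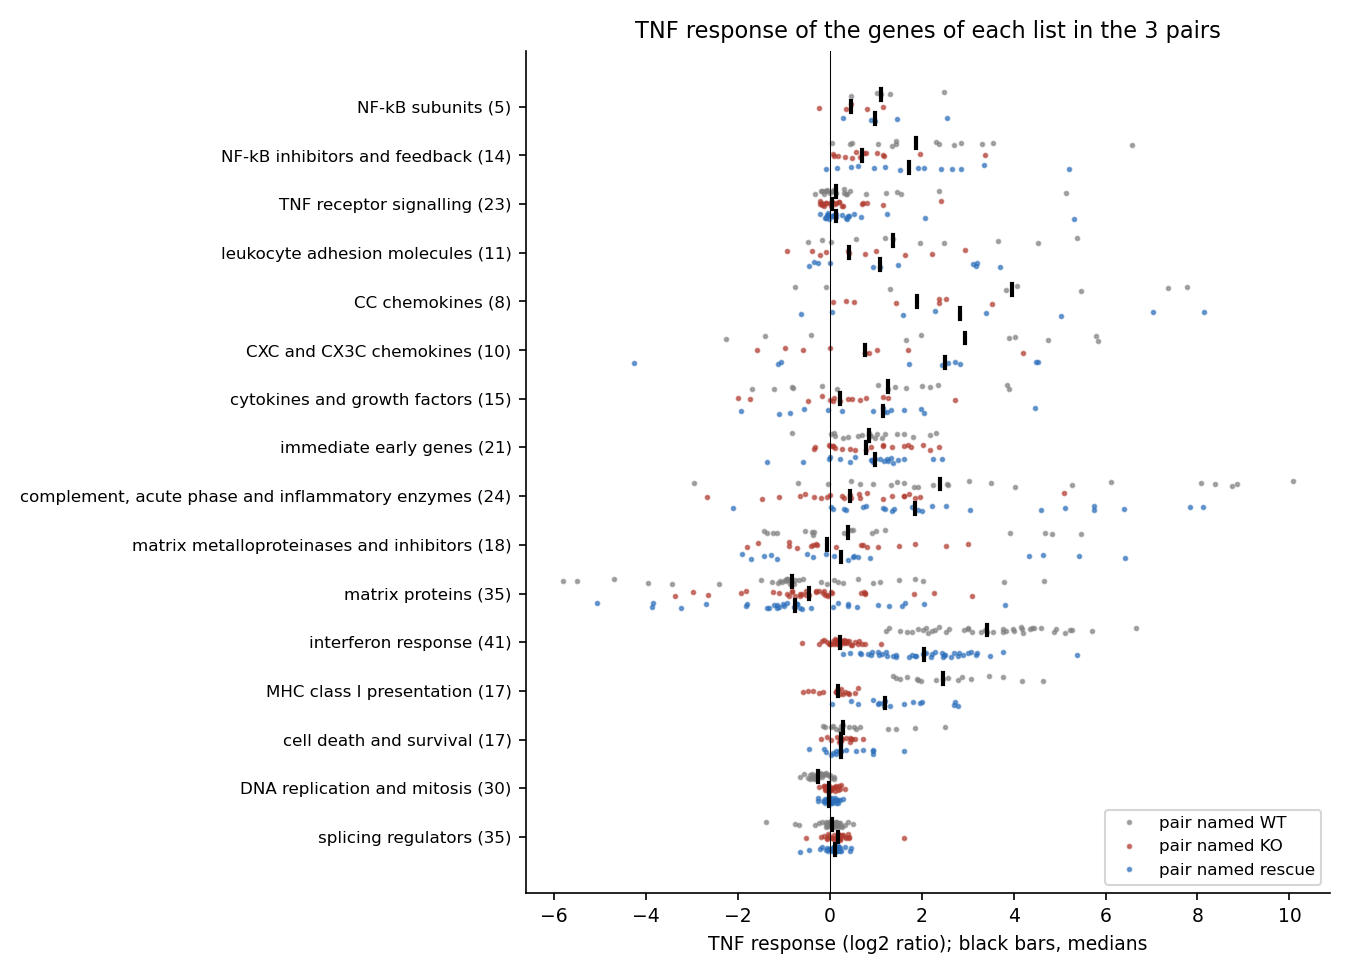
TNF response (log2 ratio) of every measured gene of 16 lists in the pair named WT (grey), KO (red) and rescue (blue), with a black bar at each median and the number of genes in brackets. The red points of the interferon and MHC class I lists gather near 0, with medians of 0.218 and 0.172, while those of the immediate early list overlap the other pairs. Genes with 0 counts take a value set by the prior count of 2.

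Of 21 immediate early genes, 9 passed 2-fold upwards, against 8 in the pair named WT and 10 in the pair named rescue, and the medians were 0.794, 0.859 and 0.974 in the pairs named KO, WT and rescue. Single members diverged. Fosl1, an AP-1 subunit, went from 33.1 to 135.2 CPM, a response of 2.03 against 1.62 and 1.60. Egr2, a zinc finger factor, had 2.37 against 2.32 and 2.23, its relative Egr3 1.77 against 0.08 and 0.97, and Dusp5, a MAP kinase phosphatase, 2.18 against 1.13 and 1.37. Egr1 went from 65.2 to 210.8 CPM, a response of 1.69 against 0.85 and 0.92, and this larger response passed the test (edgeR, adjusted p = 0.0452, and from 0.0856 to 0.201 under the other settings). Junb went the other way, at 1.16 against 2.18 and 2.45 (edgeR, adjusted p = 0.0214, and from 0.00481 to 0.104 under the other settings). Cebpd, a C/EBP transcription factor, was at 0.01 against 0.86 and 1.33.

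Outside that list, several genes of signalling and of the matrix were at least 2-fold higher with TNF in the pair named KO and not in the others. Dusp4, another MAP kinase phosphatase, went from 39.7 to 114.1 CPM, against 18.4 to 12.9 and 44.8 to 44.9, with a difference of 1.75 (edgeR, adjusted p = 0.0133, and from 0.000363 to 0.115 under the other settings). Ank, a pyrophosphate and ATP exporter, went from 289.9 to 730.1 CPM, against 298.3 to 245.5 and 314.9 to 299.8 (difference 1.51, edgeR, adjusted p = 0.00605, and from 1.51e-07 to 0.0719 under the other settings). Mgp, an inhibitor of calcification, went from 24.5 to 72.2 CPM, against 78.6 to 74.3 and 138.1 to 89.5 (difference 1.92, edgeR, adjusted p = 0.0114, and from 3.75e-06 to 0.134 under the other settings). Gcnt4, a glycosyltransferase, and Prkg2, a cGMP-dependent kinase, had responses of 1.76 and 1.38, against -0.44 to 0.16 in the other pairs. These 5 genes were named after their values were seen. By the rule for genes of this pair alone, 2 were higher, Arc, an immediate early gene of neurons (14.5 to 36.4 CPM, edgeR, adjusted p = 0.0376, and from 0.074 to 0.364 under the other settings), and Gm14137, and none was lower.

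Few interferon response genes passed 2-fold in the pair named KO. Of 41, 1 passed 2-fold with TNF in this pair, against 41 in the pair named WT and 34 in the pair named rescue, and the medians were 0.218, 3.41 and 2.06. Over all genes the shares were 2.73%, 5.74% and 4.42% in the pairs named KO, WT and rescue. The count in the pair named KO is thus near its background, and those of the others are far above theirs. At rest, however, 37 of the 41 stood at least 2-fold higher in the library named KO than in both other resting libraries, against 1.89% of all genes. The list summed to 3758 CPM in the library named KO and 4360 in the one named KO_TNF, to 777 and 6744 in the pair named WT and to 555 and 1783 in the pair named rescue. The pair named KO was thus already high without TNF, above the TNF-treated rescue library. The resting level enters the response as its denominator, so these 2 facts are not independent.

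Single genes varied in this. Isg15, a ubiquitin-like antiviral protein, was at 128 and 155 CPM in the pair named KO, at 7.68 and 143.6 in the pair named WT and at 6.09 and 33.4 in the pair named rescue. Oas3 went from 12.2 to 26.6 CPM, the response of 1.12 that passed 2-fold. Parp14, an interferon-induced ADP-ribosyltransferase, and Oas2, another nucleotide synthetase, followed at 0.76 and 0.70. Gbp5 was high at rest and low with TNF: it was at 5.51 and 6.69 CPM in the pair named KO, against 1.12 to 123.9 and 0.27 to 14.97. Gbp2, a GTPase of the same family, was at 65.6 and 95.6 CPM, against 55.5 to 1001 and 16.2 to 220.7, and Irf1, a factor of the interferon response, at 68.8 and 89.2 CPM, against 59.2 to 289.1 and 49.8 to 171.2. The resting levels of Gbp5, Gbp2 and Irf1 in the library named KO lay below the levels in the library named Rescue_TNF. The smaller responses of Gbp2 and Irf1 passed the test (edgeR, adjusted p = 0.00055 and 0.0142), with ranges of 5.29e-33 to 0.03 and 1.38e-05 to 0.103 under the other settings. By edgeR's test 27 of the 41 genes had a smaller response, against 0.99% of all genes. Of these 27, 18 also passed by DESeq2, 11 with DESeq2 size factors and 3 on the second quantification.

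MHC class I presentation followed the interferon list. None of 17 genes passed 2-fold in the pair named KO, against 17 and 13 in the others, and the medians were 0.172, 2.462 and 1.197. With 2.73% of all genes higher in the pair named KO, its count of 0 is near the background. At rest 12 of the 17 stood at least 2-fold above both others. H2-K1, a class I heavy chain with close paralogues, was at 481.9 and 607.3 CPM in the pair named KO, at 33.1 and 600.3 in the pair named WT and at 47.7 and 330.7 in the pair named rescue. B2m, the light chain, was at 1309 and 1429 CPM, against 385 to 1525 and 421.6 to 967. Psmb10, a subunit of the immunoproteasome, and Erap1, which trims peptides, had the largest responses of the list, 0.61 and 0.55. Tapbp, which helps load peptides onto class I molecules, had a response of 0.42 against 2.30 and 2.00 (edgeR, adjusted p = 0.00544, and from 6.99e-10 to 0.0769 under the other settings).

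**Figure D4:**
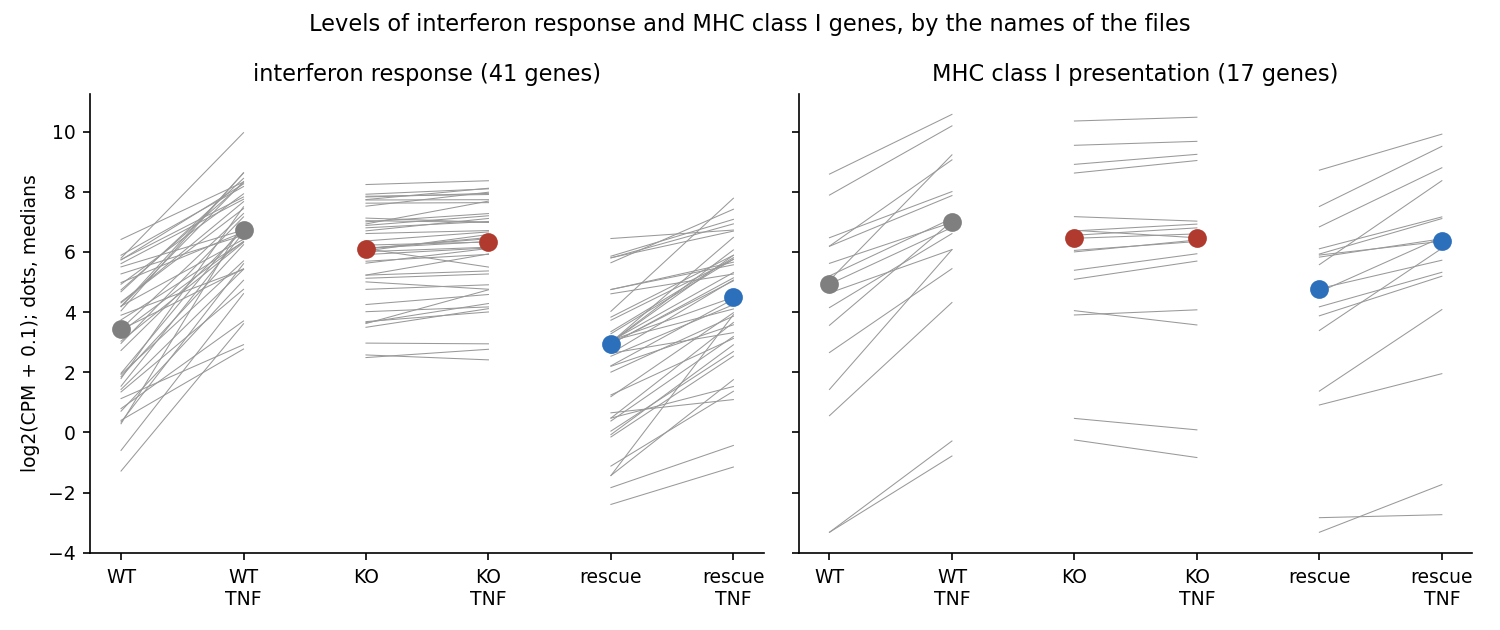
Level, as log2(CPM + 0.1), of 41 interferon response genes (left) and 17 MHC class I presentation genes (right), with a line for each gene in each pair of libraries and a dot at the median of each library. The resting library named KO lies near its TNF library and above the resting libraries named WT and Rescue.

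Driven genes were also counted without these lists. Of 47 driven genes on the interferon and MHC lists, 1 passed 2-fold in the pair named KO, and of the 392 others, 160 did (40.8%), with a median response of 0.773 against 2.08 and 1.66. Of 345 driven genes outside the lists whose resting level in the library named KO was not 2-fold above both others, 154 passed (44.6%), with a median of 0.857 against 1.98 and 1.64. The choice of driven genes favours high values in the other pairs here too. By edgeR's test the response was smaller for 69 of the 392 (17.6%) and 45 of the 345 (13.0%), against 0.99% of all genes. Among the 161 driven genes that passed 2-fold, 66 were nonetheless at least 2-fold lower in the library named KO_TNF than in both other TNF libraries (41.0%). Among the 278 driven genes that did not pass, 92 were so (33.1%), and among all genes 4.77%. Choosing genes by high responses in the other pairs favours such a gap in both groups of driven genes.

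Complement, acute phase and inflammatory enzyme genes were split. Of 24, 8 passed 2-fold upwards in the pair named KO, but Saa3, Nos2, Irg1 and Steap4 did so from 0 counts to 5 or fewer. The other 4 were C3, Ptges and Ptgs2, enzymes of prostaglandin synthesis, and Gch1, which makes the cofactor of nitric oxide synthase. Ptges went from 1.67 to 6.84 CPM, a response of 1.97 against 2.25 and 2.01, and Ptgs2 from 8.86 to 19.9 CPM, one of 1.16 against 1.92 and 2.23. Nos2, the inducible nitric oxide synthase, reached 150.3 and 27.0 CPM in the other TNF libraries and 0.2 CPM in the library named KO_TNF. Sod2, the mitochondrial superoxide dismutase, was at 48.3 and 57.8 CPM, against 33.7 to 274.4 and 51.1 to 193.4 (edgeR, adjusted p = 0.043, and from 0.107 to 0.522 under the other settings). Among those 2-fold lower were Ptx3 and Lbp, which binds bacterial lipid (24 to 2 counts). Slc7a2, an arginine transporter, had 0.66 against 2.57 and 2.52 (edgeR, adjusted p = 0.00259, and from 5.42e-10 to 0.0336 under the other settings).

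Genes that TNF lowered were followed in the same way. Of 348 genes at least 2-fold lower in both other pairs, 185 (53.2%, against 3.91% of all genes) were so in the pair named KO, with a median response of -1.05 against -1.75 and -1.46. With the 17 genes at 0 counts placed at the floor of 3 counts, the median was -1.015 and 177 passed. By edgeR's test the response was weaker for 19 of the 348 (5.46%) and stronger for 0. Over all genes 0.369% had a larger or less negative response. Choosing genes by falls in the other pairs favours calls of a weaker response. Whether the share kept differs between raised and lowered genes was not tested.

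Fmod, Aspn and Sned1 had the lowest responses in the pair named KO among genes of at least 10 CPM. Fmod, which binds collagen fibrils, went from 135.4 to 13.0 CPM, a response of -3.37 against -5.82 and -3.84. Aspn, of the same family, went from 71.8 to 9.07 CPM, against 82.5 to 1.73 and 118.6 to 3.42, and this weaker fall passed the test (difference 2.32, edgeR, adjusted p = 0.00522, and from 1.1e-06 to 0.0619 under the other settings). Prelp, a proteoglycan of the same family, had -2.65 against -3.95 and -3.24, and Sfrp2, an inhibitor of Wnt signalling, went from 1008 to 147.4 CPM. Bmp4, a growth factor of the TGF-beta family, went from 128.1 to 29.5 CPM, a response of -2.12 against -2.68 and -2.44. Sned1, Aoc3, Scara5, Igfbp4, Abca9, Dhrs3, Mettl7a1, Rasl11a and Ces1g had responses of -2.90 to -2.15, and Abi3bp was lower still relative to the others, at -2.45 against -0.46 and -1.31.

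Of 35 matrix proteins, 7 passed 2-fold downwards and 3 upwards in the pair named KO, with a median of -0.464 against -0.819 and -0.763. Col3a1, a fibrillar collagen, went from 1847 to 1491 CPM, against 1703 to 599.2 and 771.4 to 305.5 (edgeR, adjusted p = 0.0224, and from 0.000197 to 0.0987 under the other settings). Spp1, osteopontin, had responses of 2.27, 2.02 and 2.05 in the pairs named KO, WT and rescue, and Tnc, tenascin C, of 1.83, 1.86 and 1.64. Of 18 metalloproteinase genes, 5 passed upwards, among them Mmp9 and Mmp3 (7 to 23 counts). Downwards were Adamts1 and Adamts5, proteoglycan-cleaving proteases, at -1.81 and -1.58.

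Cell death and replication genes stayed within 2-fold. None of 17 cell death genes and none of 30 replication genes passed it in the pair named KO. With 2.73% of all genes higher and 3.91% lower, a count of 0 in lists of this size is near the background and shows nothing particular to them. Mlkl, the effector of necroptosis, had the largest response of the first list, 0.71 against 1.44 and 0.93, and Fas, a death receptor, had 0.47 against 2.50 and 1.61. Replication genes had a median of -0.01 in the pair, at a median level of 142 CPM at rest and 138 with TNF. Of 35 splicing regulators, Nova2 passed 2-fold, from 0 to 4 counts, and the median was 0.185.

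Splicing was described from the deposited psi of 97281 nodes (cassette exon parts, alternative acceptors and donors, retained introns) with at least 20 reads in both libraries named KO. A change of at least 0.2 was found at 448 of them (0.461%) in 382 genes, 226 towards more and 222 towards less inclusion. The pairs named WT and rescue had 528 (0.541%) and 470 (0.481%). By type, 197 of 83368 cassette parts changed, 102 of 4442 acceptors, 82 of 3375 donors and 67 of 6096 introns. At nodes measured in all pairs, 25 of 329 changes (7.6%) had a change of at least 0.1 in the same direction in both other pairs, 17 (5.17%) in the opposite direction in both, and 129 (39.2%) were under 0.1 in both. Nodes of TNF-driven genes changed about as often as all nodes, 7 of 1651 (0.424%).

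Several of the 10 largest changes were at nodes that also differed between untreated libraries. An alternative donor part of Gnas (G protein alpha s, chr2:174330401-174330434, coding) had a psi of 0.937 in the library named KO, on 254 reads, and 0.219 in the one named KO_TNF, on 243 reads. In the other 4 libraries it was 0.713 to 0.979. Of Triobp, an actin-binding protein, a coding exon (chr15:78978614-78978751) went from 0.715 to 0.070, and from 0.406 to 0.114 and 0.466 to 0.245 in the other pairs, and its neighbour (chr15:78976467-78976544) from 0.886 to 0.384. The exon at chr15:78978614-78978751, not its neighbour, was the node among the 10 that moved the same way by more than 0.2 in all 3 pairs. It had 23 to 73 reads per library. In Luc7l2, a splicing factor, a UTR exon (chr6:38554980-38555063) and a coding exon (chr6:38568847-38568917) went from 0.177 to 0.727 and from 0.152 to 0.697, and the other 4 libraries lay at 0.701 to 0.865, so that the resting library named KO stood apart.

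The rest of the 10 were mixed. A UTR exon of Mapkap1, an mTORC2 subunit (chr2:34429518-34429626), went from 0.090 to 0.609, against 0.015 to 0.056 in the other 4 libraries, on 54 to 80 reads. An acceptor of Dynlrb1, a dynein light chain, went from 0.352 to 0.872 and in the pair named WT from 0.298 to 0.915, but from 0.905 to 0.809 in the pair named rescue. Paip1, a partner of poly(A)-binding protein, and the noncoding gene Gm47761 differed by -0.504 and -0.691 with TNF in the pair named KO and by 0.539 and 0.631 in the pair named rescue. Tor1aip2 went from 0.491 to 0.977, against 0.747 to 0.953 and 0.956 to 0.743. With 1 library per condition, such switches between libraries have no replicate check.

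In genes of the NF-kB and TNF signalling lists, 4 nodes with at least 50 reads changed by at least 0.1 in the pair named KO. Over all genes, 2067 of 97281 nodes with at least 20 reads changed by as much. The nodes measured in these lists were not counted, so the 4 cannot be set against that background. Adjacent parts of a coding exon of Tnfrsf1b (chr4:145229004-145229074 and chr4:145229075-145229106), which share reads, had a psi of 0.600 and 0.604 at rest and 0.753 and 0.755 with TNF, while the other 4 libraries were at 0.834 to 1.0. A donor part of Chuk (chr19:44077246-44077262, coding) went from 0.506 to 0.631, and a retained intron of Ikbkb from 0.066 to 0.184. The deposited intervals of the library named KO and the library named KO_TNF overlapped at each of the 4 nodes. Both libraries named KO lay below the other 4 at Tnfrsf1b, with and without TNF. There the deposited intervals of the library named KO_TNF overlapped those of the libraries named WT, WT_TNF and Rescue.

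A coding exon of Mlkl showed the same order more clearly and is given with its sequence, as it lies in a gene of TNF-induced cell death. It was chosen after its values were seen.
Mlkl exon, chr8:111315493-111315542, minus strand: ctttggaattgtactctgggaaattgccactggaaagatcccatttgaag

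Its psi was 0.461 (deposited interval 0.373 to 0.552, 81 reads) in the library named KO and 0.625 (0.556 to 0.689, 140 reads) in the library named KO_TNF. The other 4 libraries were at 0.946 to 0.965, on 94 to 307 reads. Both libraries named KO lay far below them, and the intervals of the 2 libraries named KO did not overlap each other. The change with TNF was 0.164 in the pair named KO and -0.003 and -0.019 in the others.

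**Figure D5:**
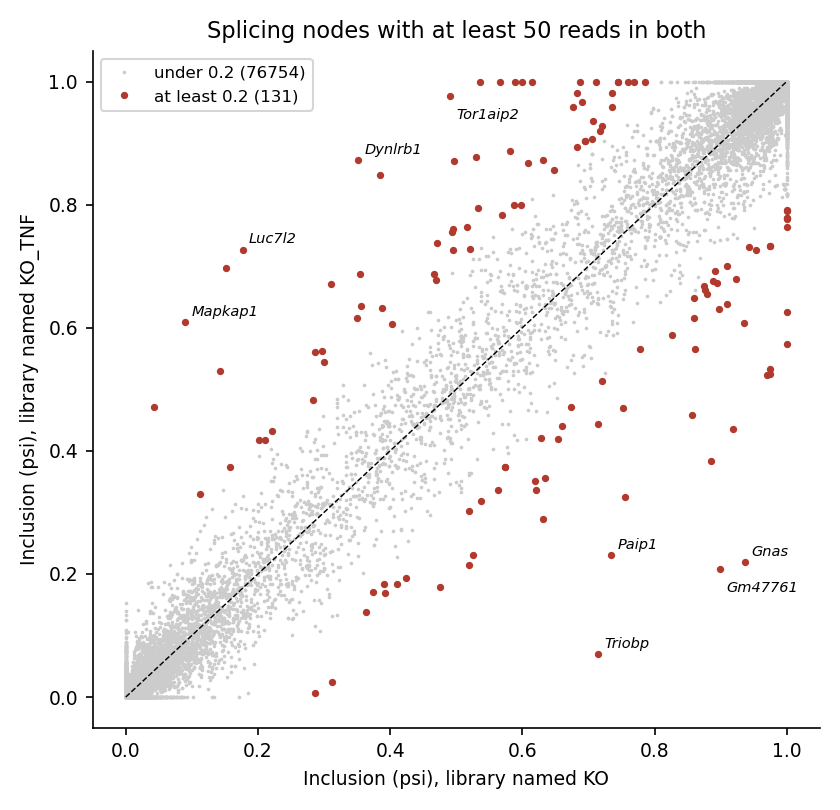
Inclusion (psi) of splicing nodes in the library named KO (horizontal) and the library named KO_TNF (vertical), each with at least 50 reads, with changes of at least 0.2 in red and the line of equality dashed. Of 76885 nodes, 131 lie at least 0.2 from the line, on both sides of it, and the genes with the 10 largest changes are named.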

How the data were processed

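RNA of 6 libraries of a mouse aortic cell line was sequenced after preparation with a SMARTER mRNA kit, per the labels' protocols. Expected counts from RSEM and matching TPM, both deposited per gene (for the library named KO per transcript, summed here by gene), came with a second deposited set of estimated counts, deposited junction read counts, and the authors' psi, a fraction, with the estimated reads behind it. RSEM comes from the submitters' processing notes. Its version, the aligner, genome build, strand and splicing tool are not given in the sources used here. Exon edges of 171237 of 171643 cassette nodes (99.8%) match GENCODE vM21, so coordinates are given on GRCm38. The deposited junction counts were not used.

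Groups follow the names of the files, against the sample titles, as set for this work. Expected counts were rounded, filtered with edgeR's filterByExpr (12728 of 21674 genes kept) and scaled by TMM (edgeR 4.0.16, R 4.3.3). Rows without a gene (0.073% to 0.093% of counts) were left out. The difference between pairs was tested in edgeR over 6 libraries with terms for genotype, TNF and TNF in KO, with Benjamini-Hochberg adjustment over 12728 genes. DESeq2 1.42.0, DESeq2 size factors, total counts, the second quantification, TPM, other prior counts, filters and thresholds, and grouping by title were alternatives. The other settings quoted beside an adjusted p are DESeq2, the second quantification and DESeq2 size factors.

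Replicates are lacking, so a p-value measures only the unequal response of the pairs named WT and rescue. The members and gene lists were chosen with earlier results of these data known. Named are the members of the NF-kB, TNF, adhesion, chemokine and cytokine lists, the 15 largest rises and falls at 10 CPM or more, the 15 largest and 15 smallest responses among driven genes with at least 10 CPM in a library of the other pairs, genes at least 2-fold in this pair and under 1.2-fold in the others, the leading members of other lists, and the 10 largest psi changes at 50 reads or more. Other members of those lists that are named were picked after their values were seen, as were the alternatives for lowered genes and for list medians. The fit was tested on simulated data in which the pairs named WT and rescue had the same response. It therefore does not show how the test behaves where these pairs differ. A few genes that the naming rule selects are not reported here.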

Additional observations from a re-analysis of the deposited data

Results flagged for a closer look

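For 46 of the genes named in the report, the test of the difference itself (edgeR, adjusted p under 0.05) set the TNF response of the pair named KO apart from that of the other pairs. The difference was negative for 34 and positive for 12, and 5 of the 46 stayed under the threshold on the second quantification (Ccl5, Gbp5, Gbp2, Traf1 and Slc7a2), where 2 had no entry (Gm11435 and C1s). Among chemokines it was -6.51 for Ccl5, -5.73 for Ccl8, -3.5 for Cxcl10, -1.72 for Ccl2, -0.91 for Ccl9 and -0.84 for Cx3cl1. Among genes of NF-kB and TNF signalling it was -2.84 for Traf1, -1.72 for Nfkbia, -1.63 for Tnip1, -1.5 for Nfkbie and -1.36 for Relb. Interferon response genes had -6.3 (Gbp5), -3.75 (Oas2), -3.44 (Gbp2), -3.13 (Isg15), -2.99 (Oas3), -2.59 (Parp14) and -1.66 (Irf1). Genes of antigen presentation had -3.14 (H2-K1), -2.5 (Psmb10), -1.73 (Tapbp) and -1.59 (Erap1). Oas2, Isg15 and H2-K1 missed the threshold under each of the other settings.

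Of defence and metabolic proteins, Lbp had -5.72, Ptx3 -2.61, Sod2 -2.2, Slc7a2 -1.89 and C1s -1.75. Of the rest, Gm11435 had -10.91, Gm4951 -3.89, Tmem140 -2.42, Trim12c -1.71, Vcam1 -1.46, Vegfc -1.34 and Junb -1.15. The value of Gm11435 rests on 0 counts in both other resting libraries. A larger, or less negative, response was found for Aspn at 2.32, Gcnt4 at 2.09, Esm1 at 1.94, Mgp at 1.92, Dusp4 at 1.75, Prkg2 at 1.51, Ank at 1.51, Arc at 1.41, Il1rl1 at 1.16, Col3a1 at 1.11, Alcam at 0.86 and Egr1 at 0.8.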

How the results depend on the processing

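Grouping by the sample titles turned the direction of the result. The pair titled KO sets the library named Rescue against the one named WT_TNF, so by file names both line and treatment differ. Ccl2 was at 50.4 CPM in the library named Rescue and 2038 CPM in the one named WT_TNF. The Ptbp2 exon had a psi of 1.0 in the libraries named KO and KO_TNF, which are titled Rescue and WT with TNF. Elsewhere it was 0.562 to 0.942. Beyond these values, which naming is right was not tested. The response was then -5.336 for Ccl2, -4.434 for Vcam1, -6.101 for Icam1 and -2.91 for Nfkbia, with medians of -1.246 for driven genes, -2.164 for NF-kB feedback genes, -3.559 for CC chemokines, -0.875 for immediate early genes, -4.341 for interferon response genes, -2.227 for MHC class I genes and 0.796 for matrix proteins. It also gave 1012 higher and 1226 lower genes, 25 of 176 driven genes, 113 of 335 lowered genes (median -0.126 over the 335), and 0 genes by edgeR's test.

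By the names of the files, the number of genes at least 2-fold higher was 547 on the second quantification, 127 on log2(TPM + 1), 585 without the filter and 902 at 1.5-fold. The number lower was 751, 210, 917 and 1157. Of driven genes, 60 of 254 passed on TPM, 250 at 1.5-fold and 79 of 154 where driven meant 4-fold. Their median was 0.522 on TPM, 0.509 where the pair named WT alone chose them and 1.034 at 4-fold. Of lowered genes, 94 of 208 passed on TPM and 47 of 55 where lowered meant 4-fold. Their median was -0.942 on TPM, -0.734 chosen by WT alone, -0.92 by rescue alone and -1.695 at 4-fold. Ccl2 was at 3.668 on the second quantification, Vcam1 at 2.105 and Icam1 at 1.273 on TPM.

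The test of the difference called 60 genes with DESeq2 size factors, 13 on the second quantification and 310 without the filter, and the cause was not tested. Splicing changes numbered 131 at 50 reads, 2067 at a change of 0.1 and 197 for cassette parts alone. Low counts limit Icam1 and other genes under 5 CPM.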
